A study of Homo sapiens with 12 samples.

Results

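The 82 genes described here encode the proteins of the cytosolic ribosome, 33 of the small 40S subunit and 49 of the large 60S subunit. They were taken by symbol from the 20030 rows of the deposited FPKM table (a fragment count scaled to transcript length and library size), as RPL or RPS followed by a number, RPLP0 to RPLP2, RPSA and FAU, without kinases, RPS4Y genes and pseudogenes. The rule reads symbols and no measured value. Of the 82 genes, 80 had a mean of at least 0.1 FPKM and were tested, while RPL3L and RPL10L were at or near 0 in every library. Both cell lines used, MOLM-13 and THP-1, were established from human acute myeloid leukemia of monocytic type and carry a rearranged MLL gene. JOA (Jiyuan oridonin A) is an ent-kaurene diterpenoid that was tested as an inducer of differentiation in such cells. MOLM-13 cells were treated with 0.5 μM JOA and THP-1 cells with 2 μM JOA for 48 h, and control cells received the DMSO vehicle. Each of the 4 groups had 3 mRNA-seq libraries, giving 12 in all. Cell line and dose differed together, so the effects of line and dose on a JOA response cannot be told apart. Because the sample records do not say whether replicates were separate cultures, the p-values measure the spread between these libraries, which may be technical.

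Cytosolic ribosomal proteins assemble with ribosomal RNA in the nucleolus, and each is needed in about equal number in a finished ribosome. Their mRNAs are among the most abundant in dividing cells, and most of them begin with a terminal oligopyrimidine (TOP) tract, through which mTORC1 signalling and LARP1 adjust their translation and stability together. In blood cells, loss of function in several of these genes causes Diamond-Blackfan anemia, and loss of RPS14 contributes to the anemia of the 5q- syndrome.

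The libraries matched the labelled lineage in most markers. Of 10 monocytic markers, 9 reached 1 FPKM in at least 1 library, and CD14 did not. Of 12 markers of other cell types (lymphoid, erythroid, platelet, epithelial and liver), only CD3D did. Summed over the list, the monocytic markers ranged from 2291 to 3533 FPKM in MOLM-13 control, from 2826 to 3779 in MOLM-13 JOA, from 1113 to 1709 in THP-1 control and from 1114 to 1437 in THP-1 JOA. Most of each sum came from LYZ, at 1870 to 3290 FPKM in MOLM-13 and 755 to 1350 FPKM in THP-1. Total depth is unknown, and the depth relative to the control library with replicate number 1 of the same line lay between 0.88 and 1.07. THP-1 JOA replicate 1, at a relative depth of 0.94, had the lowest share of ribosomal protein mRNA of all 12 libraries, and the THP-1 JOA medians and counts are also given without it.

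The transcription start shows the TOP tract that most of these genes share. RefSeq promoters on GRCh38.p14, with 250 bases before and 50 after an annotated start, were found for 65 of the 82 genes. A start at C followed by at least 4 pyrimidines was present for 47 of the 65 genes (72.3%), as compared to 5.14% of 27305 genes with a promoter in the same table. The sequences below run from 35 bases before the start to 15 bases from the start on, with the tract in capitals. They were chosen because the results name these genes. RPLP1 had the highest level. RPLP0, RPS14 and RPL41 had lower values with JOA in THP-1 cells, and RPS12 had a lower mean there with overlapping groups. RPL13A and RPL18 were far lower in THP-1 than in MOLM-13 cells, and RPSA and RPL14 were higher.
RPLP1 (chr15:69452783-69452832, plus strand): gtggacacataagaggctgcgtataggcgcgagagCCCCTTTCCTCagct
RPS12 (chr6:132814534-132814583, plus strand): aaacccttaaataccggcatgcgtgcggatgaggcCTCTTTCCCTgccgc
RPLP0 (chr12:120201097-120201146, minus strand): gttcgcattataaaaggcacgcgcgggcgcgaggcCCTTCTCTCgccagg
RPS14 (chr5:150449725-150449774, minus strand): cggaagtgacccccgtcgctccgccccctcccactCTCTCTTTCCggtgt
RPL41 (chr12:56116598-56116647, plus strand): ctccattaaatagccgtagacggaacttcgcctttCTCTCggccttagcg
RPL13A (chr19:49487573-49487622, plus strand): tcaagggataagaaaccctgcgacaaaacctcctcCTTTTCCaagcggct
RPL18 (chr19:48619164-48619213, minus strand): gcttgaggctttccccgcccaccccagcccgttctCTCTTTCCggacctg
RPSA (chr3:39406685-39406734, plus strand): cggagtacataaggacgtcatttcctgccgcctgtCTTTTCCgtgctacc
RPL14 (chr3:40457304-40457353, plus strand): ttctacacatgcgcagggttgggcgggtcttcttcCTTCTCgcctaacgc
The annotated starts of RPS29, RPS27L and RPS26 held no such tract, and they are shown with no capitals. They are among the members that moved most or moved against the others in a comparison. So are RPL13A, RPSA and RPL14, which have the tract.
RPS29 (chr14:49598696-49598745, minus strand): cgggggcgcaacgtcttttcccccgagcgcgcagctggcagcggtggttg
RPS27L (chr15:63157463-63157512, minus strand): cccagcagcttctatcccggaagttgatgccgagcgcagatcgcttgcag
RPS26 (chr12:56041883-56041932, plus strand): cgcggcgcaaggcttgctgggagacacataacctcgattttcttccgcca
When the tract was allowed to begin up to 10 bases away from the annotated start, 58 of the 65 genes (89.2%) and 38.4% of all genes had one. The letters CCGGAAG, which ETS factors bind, were in the 300-base promoter on either strand for 23 of the 65 genes (35.4%) as compared to 12.2% of all genes. The letters AAGATGG, a YY1-type motif, were found for 9 genes (13.8%, against 7.11%), and TATAAA was found for 6 genes (9.23%, against 14%). These matches are descriptions of the letters in the window.

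Ribosomal protein mRNAs were among the most abundant of the table. Of the 25 rows with the highest mean FPKM over 12 libraries, 18 were members, and so were 56 of the highest 100. Of the 82 genes, 74 had a mean of at least 100 FPKM, and the median of the member means was 653 FPKM. FPKM is scaled to gene length, but the length model is not given in the sources used here and processed pseudogenes can draw reads from these genes, so the order of levels between genes is uncertain.

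The highest level belonged to RPLP1, an acidic protein of the P stalk that recruits translation factors, at 3228, 3462 and 3269 FPKM in the MOLM-13 control libraries and 3319, 3624 and 3786 FPKM in the THP-1 control libraries. The next in order were RPS18, RPS2 and RPS12 of the 40S subunit and RPL37A of the 60S subunit, with means of 2879, 2826, 2468 and 2082 FPKM over the 12 libraries. RPS18 and RPS2 did not differ beyond their spread, since RPS18 ranged from 2110 to 3604 FPKM and RPS2 from 2419 to 3225 FPKM. Among the detected members, the lowest was RPL36A, an X-linked 60S gene, at 7.71 to 19 FPKM. It was followed upward by RPL39L at 16.5 to 26.4 FPKM, RPS29 at 12.2 to 36.5 FPKM, RPL28 at 24.9 to 48.9 FPKM and RPS21 at 55.2 to 82.5 FPKM. The ranges of RPL36A, RPL39L and RPS29 overlapped. The row of the readthrough transcript RPL36A-HNRNPH2 held 118 to 128 FPKM in MOLM-13 control and 56.4 to 61.1 FPKM in THP-1 control, more than RPL36A itself, and fragments of the shared exons cannot be assigned to either with certainty. The rows RPL17-C18orf32 and RPS10-NUDT3 overlap RPL17 and RPS10 in the same way.

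The order of levels was much alike in the cell lines. Across the 80 detected members, log2 mean FPKM of MOLM-13 control and THP-1 control were correlated with a Pearson r of 0.936 and a Spearman rho of 0.881, a description over genes that share libraries and length scaling. Members varied little between control replicates, with a median coefficient of variation of 7.77% in MOLM-13 and 3.71% in THP-1. RPL36A had the highest variation in MOLM-13 control (19%) and RPS19 in THP-1 control (10.1%). With JOA, RPL30 varied most in MOLM-13 (21.4%) and RPL27 in THP-1 (19.9%).

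Summed over the 82 genes, ribosomal protein mRNA took 23.7%, 26.5% and 27.1% of all FPKM in the MOLM-13 control libraries and 24.5%, 26.8% and 25.6% in the MOLM-13 JOA libraries. The share was 20.3%, 20.8% and 21.6% in THP-1 control and 17.3%, 19.3% and 19.7% in THP-1 JOA. All 6 THP-1 libraries lay below all 6 MOLM-13 libraries, the MOLM-13 control and JOA ranges overlapped, and the THP-1 JOA libraries lay below the THP-1 control libraries. The mean was 25.8% ± 1.79 (SD, n = 3) in MOLM-13 control, 25.6% ± 1.16 in MOLM-13 JOA, 20.9% ± 0.671 in THP-1 control and 18.8% ± 1.32 in THP-1 JOA. The share is a description and was not tested. These are bulk samples, so fewer cells rich in these mRNAs and less of the mRNAs per cell cannot be told apart. The FPKM of 40S genes was 0.676 to 0.704 times that of 60S genes in MOLM-13 libraries and 0.776 to 0.805 times in THP-1 libraries, and the ranges of the lines did not overlap. Proteins of the mitochondrial ribosome, from 78 separate nuclear genes, took 1.06% ± 0.0434 of FPKM in MOLM-13 control and 0.908% ± 0.0363 in THP-1 control.

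**Figure D1:**
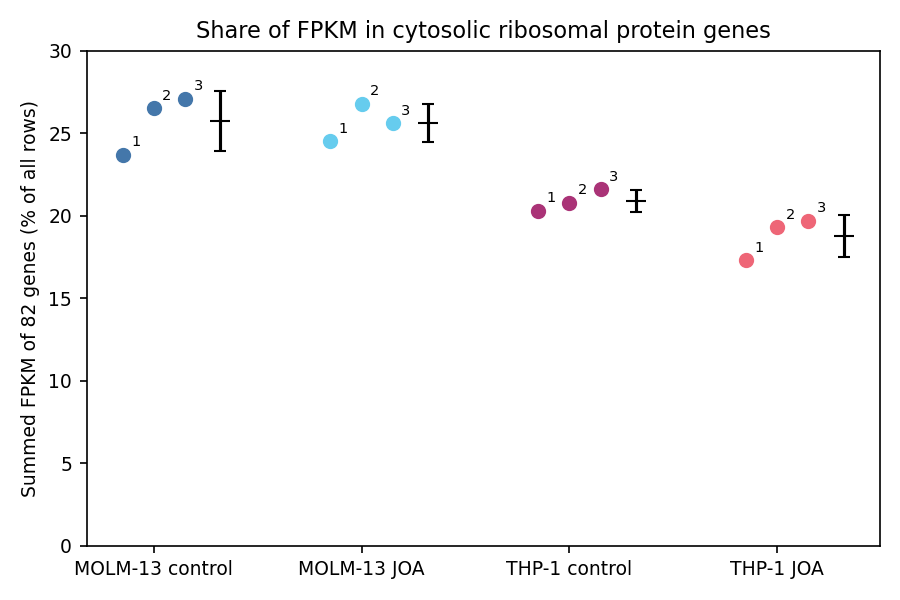
Summed FPKM of the 82 cytosolic ribosomal protein genes as a percentage of all rows, for each of the 12 libraries (points, numbered by replicate), with the mean and SD of each group (bars). The THP-1 JOA libraries sit between 17.3% and 19.7%, below the THP-1 control libraries at 20.3% to 21.6%, and all THP-1 libraries are below the MOLM-13 libraries.

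To find how ribosomal protein expression differed between the lines before treatment, THP-1 control was compared with MOLM-13 control. Of the 80 genes tested, 26 were lower in THP-1 at an adjusted p below 0.05 and a log2 fold change of at least 0.58 in size, where 19% of all 12635 genes were called lower. Only 2, RPSA and RPL14, were higher by the same rule, as compared to 25% of all genes. By the adjusted p alone, 47 members were lower (all genes, 32.2%) and 8 were higher (all genes, 39%). The median log2 fold change of the members was -0.33, whereas that of all genes was 0.06. Of the 80 genes, 61 were lower in THP-1, with a median of -0.25 over 33 40S genes and -0.48 over 47 60S genes. Rescaling to TPM moved the median of all genes by 0.11, and then 56 members were lower, with a median of -0.25. By the adjusted p, 40 were then called lower (all genes, 26.6%) and 11 higher (all genes, 43.2%).

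The largest difference was that of RPL7, a 60S protein, with 2127, 2283 and 2284 FPKM in MOLM-13 control and 569, 526 and 561 FPKM in THP-1 control. The groups were far apart, with a log2 fold change of -2.02 ± 0.08 (SE, adjusted p = 2.10e-07). RPL13A, a 60S protein that also acts outside the ribosome in silencing inflammatory mRNAs in myeloid cells, had 1843, 2316 and 2294 FPKM in MOLM-13 and 601, 604 and 634 FPKM in THP-1 (log2 fold change -1.80 ± 0.10, adjusted p = 1.66e-06). RPS20, a protein of the 40S head, was at 1257, 1468 and 1467 FPKM in MOLM-13 and at 432, 429 and 453 FPKM in THP-1 (log2 fold change -1.67 ± 0.08, adjusted p = 8.18e-07). RPL8, which lies close to the peptidyl transferase center, was at 2756, 2756 and 2706 FPKM in MOLM-13 and at 939, 940 and 914 FPKM in THP-1, a log2 fold change of -1.56 ± 0.08. RPS27L, a p53-inducible paralog of RPS27, was at 153, 124 and 139 FPKM in MOLM-13 and at 45.5, 49.1 and 52.7 FPKM in THP-1, a log2 fold change of -1.49 ± 0.09. None of these 5 genes overlapped between the lines. That was common, since 4308 of all 12635 genes were lower and 5147 were higher in THP-1 without overlap.

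The other members called lower included RPL18 (log2 fold change -1.44), RPL30 (-1.40), RPL10 (-1.34), RPL39 (-1.14), RPL9 (-1.09), RPS28 (-1.03), RPL26 (-0.87), RPS3 (-0.85), RPL36A (-0.78), RPS4X (-0.76), RPL3 (-0.74), RPS29 (-0.74), RPS9 (-0.74), RPL6 (-0.69), RPL7A (-0.68), RPL17 (-0.67), RPL12 (-0.66), RPL13 (-0.61) and RPS13 (-0.59). Among them, RPL10 takes part in the last steps of 60S maturation, RPL39 lines the exit tunnel of the nascent peptide, and RPS3 borders the mRNA entry channel. RPL10 had 353, 406 and 427 FPKM in MOLM-13 control and 159, 153 and 154 FPKM in THP-1 control. The X-linked members RPS4X, RPL10, RPL36A and RPL39 were all called lower.

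RPSA, the 40S protein also known as the laminin receptor, was higher in THP-1, with 1224, 1251 and 1208 FPKM as compared to 650, 682 and 744 FPKM in MOLM-13 (log2 fold change 0.83 ± 0.08, adjusted p = 2.84e-05). RPL14, a 60S protein, was at 713, 672 and 735 FPKM in THP-1 and 434, 486 and 445 FPKM in MOLM-13 (log2 fold change 0.64 ± 0.07, adjusted p = 0.000102). RPS26, RPS27, RPL37A, RPL39L, RPL38 and RPL23A were higher by the adjusted p with log2 fold changes of 0.51, 0.46, 0.31, 0.30, 0.27 and 0.21. RPS26 lies at the mRNA exit channel and is a Diamond-Blackfan anemia gene. Its annotated start shown above held no TOP tract, but a C followed by pyrimidines (cttcc) lay within 10 bases after that start.

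Members with known roles in blood disease or signalling were split between those that passed the test and those that did not. RPL5 and RPL11, which carry 5S ribosomal RNA and bind MDM2 when ribosome assembly fails, had log2 fold changes of 0.08 (adjusted p = 0.411) and -0.18 (adjusted p = 0.0772). RPS6, the S6 kinase substrate, had 1570, 1814 and 1766 FPKM in MOLM-13 and 1619, 1670 and 1799 FPKM in THP-1, and the ranges overlapped (log2 fold change -0.02 ± 0.09). RPS14 had a log2 fold change of -0.25 (adjusted p = 0.0807). RPS19, the most frequently mutated gene of Diamond-Blackfan anemia, was lower by 0.29 on the log2 scale (log2 fold change -0.29, adjusted p = 0.0168), RPL35A was also lower (-0.25, adjusted p = 0.0444), and RPS24 (0.06) did not pass the test. Of the P stalk, RPLP0 and RPLP2 were lower (log2 fold changes -0.48 and -0.38) and RPLP1 was not called (0.11). FAU and RPS27A, which are made as fusions to a ubiquitin-like protein and to ubiquitin, were lower, with log2 fold changes of -0.19 and -0.51.

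The JOA libraries of both lines are other libraries of the same lines and gave the same comparison again, an alternative chosen after the data were seen. There, 34 members were lower (all genes, 18.9%) and 2 were higher (all genes, 26.1%) by both thresholds, and the median was -0.46. They included all 26 genes called lower and both genes called higher in the control libraries.

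**Figure D2:**
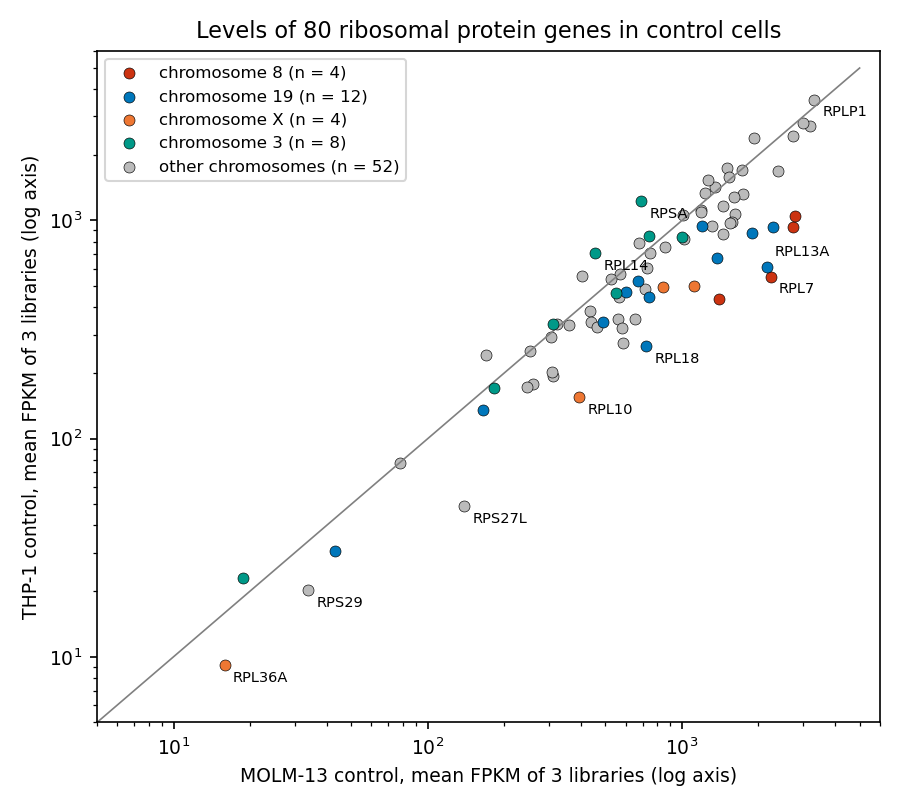
Mean FPKM of 3 control libraries in MOLM-13 (x, log axis) and THP-1 (y, log axis) for the 80 detected ribosomal protein genes, colored by chromosome, with the line of equal values. RPL7 and RPL13A lie farthest below the line, RPSA and RPL14 lie above it, and the 4 genes on chromosome 8 are all below it.

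The size of the difference between the lines varied from chromosome to chromosome. All 4 members on chromosome 8 (RPL7, RPL8, RPL30 and RPS20) were lower in THP-1, with a median log2 fold change of -1.61, and the 409 other tested genes of chromosome 8 had a median of -1.29, with 88.5% of them lower. All 12 members on chromosome 19 were lower, with a median of -0.63, while the 976 other genes there had a median of -0.09. All 4 members on chromosome X were lower as well (median -0.96, against -0.47 over 395 other genes). On chromosome 3, which holds RPSA and RPL14, 3 of 8 members were lower, and the median was 0.16 over the members and 0.39 over 686 other genes.

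For a closer view, each member was set beside the 10 nearest tested genes on each side that were not members, by GENCODE 29 positions on GRCh38. This was chosen after the data were seen. Across the 80 members, the log2 fold change of the gene and the median of its neighbours gave a Pearson r of 0.79 and a Spearman rho of 0.781. The points share libraries, and adjacent members share neighbours. Without the 4 genes of chromosome 8, the Pearson correlation was 0.712 over 76 members. The same measure over 12336 other genes gave 0.304, and over the 367 other genes with a mean of at least 100 FPKM it gave 0.638. Among the JOA responses, the members and their neighbours had a Pearson correlation of 0.00958 in THP-1 and 0.137 in MOLM-13.

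Members lay below their surroundings in most places. In all, 72 of 80 members were lower than the median of their neighbours, by a median of 0.35 on the log2 scale (median difference -0.35). The same count over other genes was not made, so this count cannot be called particular to the members. All 38 members whose neighbours had a median below 0 were lower in THP-1, and of the 42 members whose neighbours had a median of 0 or more, 23 were lower and 19 were higher. RPL13A on chromosome 19 was at -1.80, far below the median of -0.66 of its neighbours. RPS20 was at -1.67, near the median of -1.58 of its neighbours. RPS27L departed most from its surroundings, at -1.49 where its neighbours had a median of 0.32. RPL9 (-1.09, neighbours 0.12) and RPS3 (-0.85, neighbours 0.10) also lay far below theirs, whereas RPSA (0.83, neighbours 0.21) and RPL14 (0.64, neighbours 0.30) lay above.

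**Figure D3:**
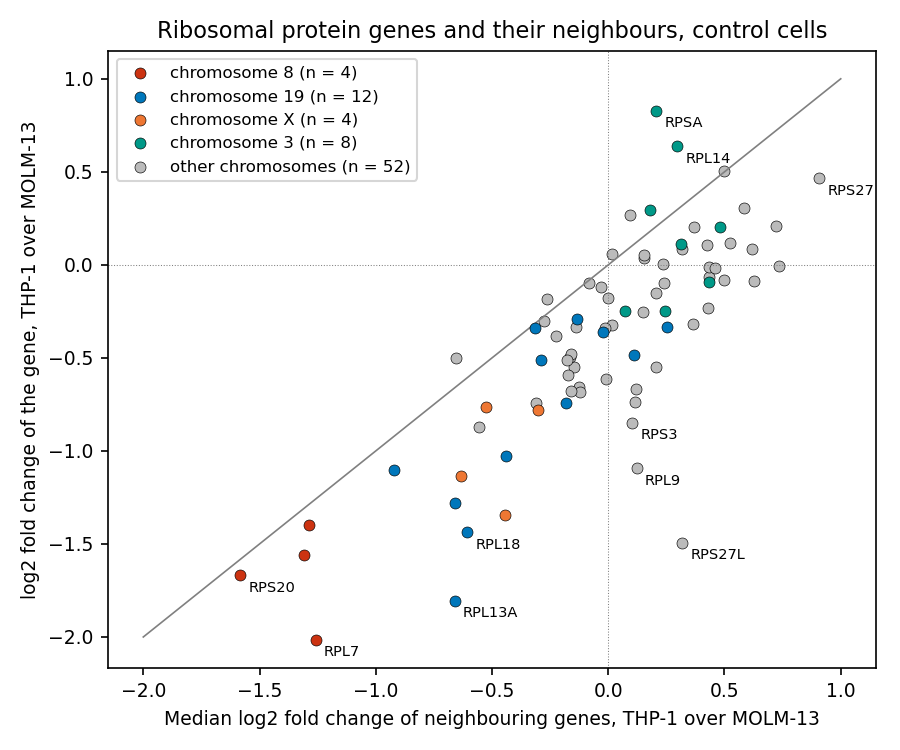
Log2 fold change of each of the 80 ribosomal protein genes, THP-1 control over MOLM-13 control (y), against the median log2 fold change of up to 20 neighbouring genes that are not members (x), colored by chromosome, with the line of equal values. The points rise together (Pearson correlation 0.79), the chromosome 8 genes are at the lower left, and RPS27L, RPL9 and RPS3 are low where their neighbours are near or above 0.

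Several ribosomal proteins have a paralog, and the ratio of paralog to parent was compared between the control cells by an exact two-sided permutation test, which cannot go below 0.1 with 3 libraries in each group. RPL3L, known from heart and skeletal muscle, was listed at 0 in 11 of 12 libraries and at 0.063 FPKM in THP-1 JOA replicate 1, and RPL10L, known from testis, was listed at 0 in all 12, so no ratio is given for them. RPS27L stood at 34.2% of RPS27 in MOLM-13 control and at 8.79% in THP-1 control, and the log2 ratio was lower by 1.96 in THP-1 (difference -1.96, exact p = 0.1). RPL22L1, a paralog of RPL22, stood at 17.5% and 3.7% of its parent (difference of the log2 ratio -2.22, exact p = 0.1). In the other direction, RPL39L stood at 1.68% of RPL39 in MOLM-13 and 4.55% in THP-1, RPL7L1 at 3.57% and 12.5% of RPL7, and RPL26L1 at 1.88% and 3.15% of RPL26, each with an exact p of 0.1. The parents RPL39, RPL7 and RPL26 were all called lower in THP-1. RPL36AL exceeded RPL36A in both lines, and the ratio overlapped between them (exact p = 0.5). Over the 6 pairs with a ratio, an exact p of 0.1 became 0.12 after Benjamini-Hochberg adjustment.

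To assess the effect of JOA in MOLM-13 cells, 3 JOA libraries were compared with 3 control libraries. No ribosomal protein gene passed the test. By limma, 0 of the 80 members and 0 of 11693 genes passed an adjusted p below 0.05 (0%), and at an unadjusted p below 0.05 there were 0 members, as compared to 481 genes in all (4.11%). With the block, 1 member was higher and 1 was lower at an unadjusted p below 0.05 (all genes, 773 higher and 522 lower). The median log2 fold change of the members was 0.01, equal to that of all genes, with 45 members higher and 35 lower. The members' values ran from -0.17 (RPL36A) to 0.20 (RPS27L), and the groups did not overlap for 2 members, RPS28 and RPL8, while 9.65% of all genes did not overlap. When a library was left out, the median of the members lay between -0.05 and 0.04. The number of lower members then ran from 18, without control replicate 2, to 67, without control replicate 1.

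RPS27L had the highest value, with 176, 149 and 152 FPKM with JOA and 153, 124 and 139 FPKM in control. The groups overlapped, and the log2 fold change of 0.20 ± 0.09 had an adjusted p of 1. The next were RPL23 (0.09), FAU (0.08), RPL39 (0.07) and RPS27, RPL13 and RPL13A (0.06 each). At the other end were RPL36A (-0.17), RPS29 (-0.14), RPL28 (-0.13), RPL30 (-0.12) and RPL37 (-0.11). With 1 library left out, RPL36A ran from -0.31 to -0.04 and RPL28 from -0.23 to -0.04. RPL30 rested on 1 library, since JOA replicate 3 had 1968 FPKM and the other 5 MOLM-13 libraries had 2554 to 3066 FPKM, and without that library its log2 fold change was 0.06. RPS6 had 1570, 1814 and 1766 FPKM in control and 1607, 1804 and 1762 FPKM with JOA, which overlap.

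In THP-1 cells, ribosomal protein mRNAs were lower with JOA almost throughout, by a small amount. Of the 80 members, 78 had a lower mean with JOA (97.5%), as compared to 43.3% of all 12712 genes. Here and in the other comparisons, members share libraries and can move together, so a count of lower members is a description. The median log2 fold change was -0.16 over the members and 0.02 over all genes, and it was -0.18 over the 40S genes and -0.15 over the 60S genes. By limma, 0 members passed an adjusted p below 0.05, with or without the fold threshold (all genes lower, 0.0787% with it and 0.11% without it). At an unadjusted p below 0.05, 30 members were lower and 0 were higher, as compared to 5.99% of all genes lower. That count was 13 without control replicate 2, 14 without control replicate 3, 46 without JOA replicate 3 and 59 with the block (all genes, 3.91%, 6.09%, 5.7% and 9.51%). The groups did not overlap for 48 members, all lower with JOA, as compared to 8.81% of all genes. With the replicate number as a block, 11 members were lower at an adjusted p below 0.05 (all genes, 2.69%) and 0 were higher (all genes, 5.37%), and none of the 11 reached the fold threshold.

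The difference was seen in each pair of libraries with the same number. In pair 1, 78 of 80 members were lower with JOA, with a median log2 ratio of -0.28. In pairs 2 and 3, 75 members were lower in each, with medians of -0.10 and -0.12, and the medians of the other genes were 0.02, 0.02 and 0.04 in the 3 pairs. Without THP-1 JOA replicate 1, 75 members were lower with a median of -0.09. Of the members, 23 were then lower at an unadjusted p below 0.05 (all genes, 4.59%), and 0 passed the adjusted p. With the block and without pair 1, a fit over the remaining 2 pairs called 36 members lower (all genes, 2.98%). Without pair 2 it called 5 (all genes, 1.71%), and without pair 3 it called 2, which is near the share of all genes (2.26%). The 367 other genes with a mean of at least 100 FPKM had a median log2 fold change of -0.02, with 54.2% lower, and the 71 of them that also had short transcripts had a median of -0.05, with 63.4% lower. When libraries were scaled to the FPKM sum of all other genes, the median of the members was -0.18.

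RPS29, a small zinc-binding protein of the 40S head, had the largest difference, with 19.7, 19.9 and 20.9 FPKM in control and 12.2, 16.1 and 15.9 FPKM with JOA. The groups did not overlap, and the log2 fold change was -0.46 ± 0.11 (adjusted p = 0.0976, and 0.0188 with the block). It was also among the lowest values in MOLM-13 cells (-0.14), and its start shown above held no TOP tract. RPS15A, another 40S protein, had 1040, 1096 and 1149 FPKM in control and 731, 1003 and 909 FPKM with JOA (log2 fold change -0.32 ± 0.11, adjusted p = 0.0403 with the block). RPL12, at the base of the P stalk, had 1005, 963 and 961 FPKM and then 722, 828 and 855 FPKM (log2 fold change -0.29 ± 0.08, adjusted p = 0.0443 with the block). RPL30 had 1017, 1046 and 1089 FPKM in control and 784, 912 and 892 FPKM with JOA (log2 fold change -0.29 ± 0.07, adjusted p = 0.0233 with the block). RPS3A and RPS12 had log2 fold changes of -0.28 each and did not pass with the block. Without JOA replicate 1, the log2 fold changes were -0.33 for RPS29, -0.20 for RPS15A, -0.21 for RPL12, -0.22 for RPL30 and -0.13 for RPS3A.

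The other members that passed with the block were RPLP0, RPLP1, RPS14, RPL41, RPL27A, RPL3 and RPL26. RPLP0, the core of the P stalk, had 903, 943 and 976 FPKM in control and 741, 816 and 823 FPKM with JOA (log2 fold change -0.25). RPLP1, which binds to it, had 3319, 3624 and 3786 FPKM in control and 2788, 3042 and 3231 FPKM with JOA (-0.24), whereas RPLP2 overlapped (-0.10). RPS14, the gene of the 5q- syndrome, had 580, 614 and 618 FPKM and then 474, 542 and 508 FPKM (-0.25). RPL41, the smallest ribosomal protein, had 705, 722 and 703 FPKM and then 558, 630 and 604 FPKM (-0.25). For RPLP0, RPLP1, RPS14 and RPL41, all JOA libraries lay below all control libraries.

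The members that departed from the rest were RPS27L, RPL39L and RPL6. RPS27L had 45.5, 49.1 and 52.7 FPKM in control and 48.9, 53.4 and 55.3 FPKM with JOA, a log2 fold change of 0.10 ± 0.07. RPL39L, a paralog of RPL39 known from testis, had a log2 fold change of 0.08 ± 0.07. RPL6, a 60S protein, had 206, 188 and 187 FPKM in control and 184, 194 and 202 FPKM with JOA, and its log2 fold change was 0.00 ± 0.06. All 3 overlapped between the groups, and none passed the test. RPS15, FAU and RPL14 came next, at -0.07 each. RPL5 and RPL11 had log2 fold changes of -0.09 and -0.10, RPS6 of -0.17 and RPS27A of -0.19. Of the Diamond-Blackfan anemia genes, RPS26 and RPS19 had -0.16, RPS24 -0.13 and RPL35A -0.19. RPS4X, RPL10, RPL39 and RPL36A on chromosome X had -0.10, -0.16, -0.21 and -0.13.

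Members with and without a TOP tract at the annotated start had similar medians in the JOA response, a difference that was not tested. By the looser rule above, 58 of the 65 genes had a tract, so some members counted here as without one had a tract nearby. In THP-1 cells, the 47 members with a TOP start had a median log2 fold change of -0.18, between -0.29 and -0.07. The 17 tested members whose annotated starts lacked it had a median of -0.15, between -0.46 (RPS29) and 0.10 (RPS27L). All 47 members with the tract were lower with JOA, where 78 of all 80 members were lower.

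**Figure D4:**
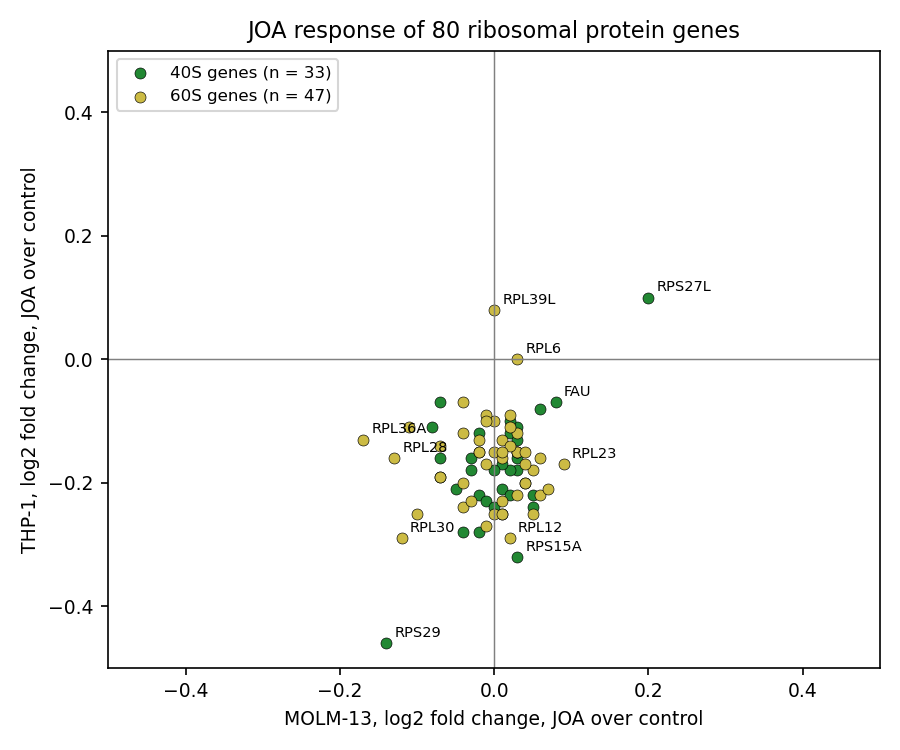
Log2 fold change with JOA of the 80 tested ribosomal protein genes in MOLM-13 (x) and THP-1 (y), with 40S genes in green and 60S genes in yellow. The points spread on both sides of 0 along the MOLM-13 axis, and all except RPS27L and RPL39L lie at or below 0 along the THP-1 axis.

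**Figure D5:**
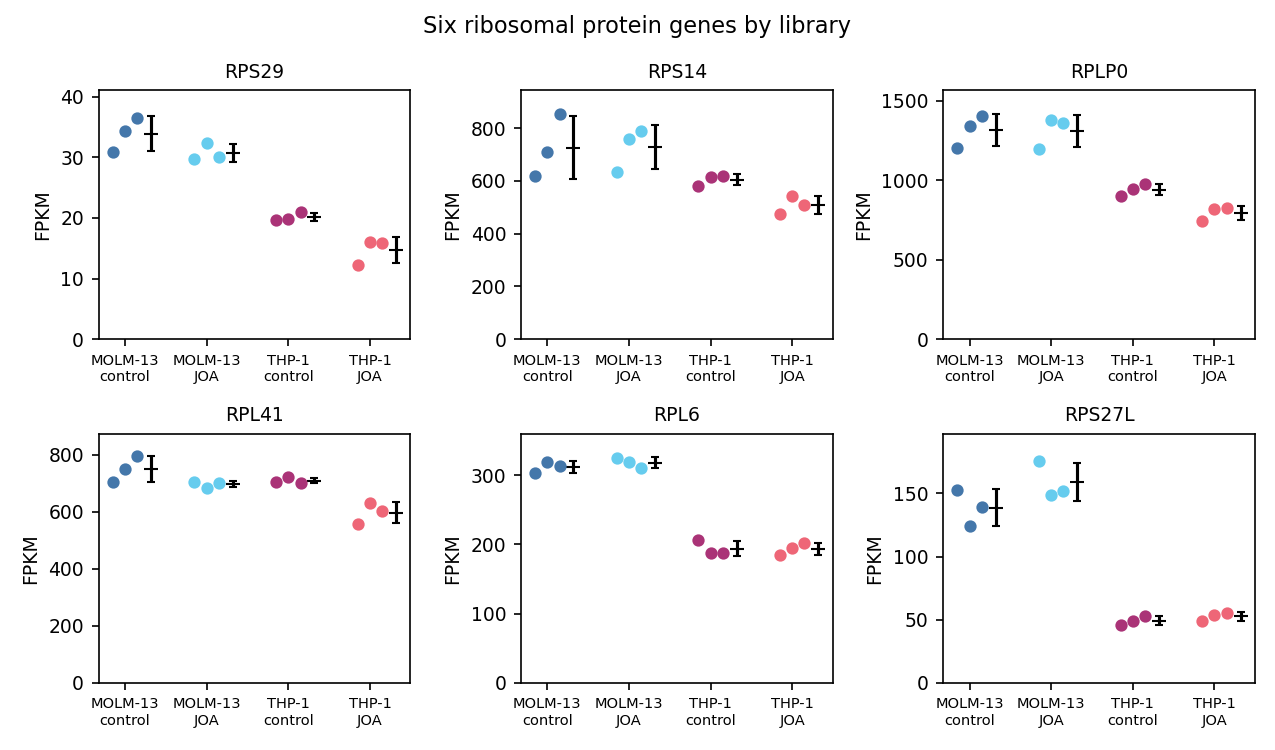
FPKM of RPS29, RPS14, RPLP0, RPL41, RPL6 and RPS27L in each of the 12 libraries (points), with the mean and SD of each group (bars). RPS29, RPS14, RPLP0 and RPL41 are lower in all THP-1 JOA libraries than in all THP-1 control libraries, while RPL6 and RPS27L overlap.

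Whether the JOA response differed between the lines was tested by the interaction of line and treatment over all 12 libraries. By limma, 0 of the 80 members passed an adjusted p below 0.05, as did 0 of 12626 genes (0%). With the block, 0 members and 6 genes in all passed, 3 of them lower and 3 higher. At an unadjusted p below 0.05, 8 members had a lower response in THP-1, as compared to 2.63% of all genes. That count ran from 1, without THP-1 control replicate 2 (all genes, 1.95%), to 21, without MOLM-13 control replicate 3 (all genes, 2.62%). It was 2 when libraries were scaled to the other genes (all genes, 2.69%) and 30 with the block (all genes, 5.83%). The 8 members were RPL8, RPL35, RPL23, RPL12, RPL3, RPL13, RPL27A and RPS29, of which RPL35 had the smallest p (difference of the log2 fold changes -0.31 ± 0.11, adjusted p = 0.591). The median difference was -0.17 over the members, with 77 of 80 negative, and 0.02 over all genes. Without THP-1 JOA replicate 1, the median was -0.10 and 70 members were negative. At an unadjusted p below 0.05, 2 members were then lower (all genes, 2.2%). The most negative differences were those of RPS15A (-0.36), RPS29 (-0.32), RPL12 (-0.31), RPL35 (-0.31) and RPS10 (-0.29), and the least negative or positive were those of RPL39L (0.08), RPL36A (0.04), RPS15 (0.00) and RPL37 (0.00). A difference between the lines in the JOA response is therefore not shown for any single member. Across the 80 members, the log2 fold changes of the lines gave a Pearson r of 0.266 and a Spearman rho of 0.0618, a description over genes that share libraries within each line, and 34 members were lower with JOA in both.

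Other genes of the translation machinery gave a mixed picture in THP-1 cells with JOA. With the block, 2.69% of all genes were lower and 5.37% were higher by the adjusted p. The calls among biogenesis factors, initiation factors and mitochondrial ribosomal proteins below were near or under these shares. All 6 elongation factors were lower, with a median log2 fold change of -0.15, and 1 of them, EEF1D (-0.17), passed the adjusted p with the block. Of 6 close relatives of the members, 5 were lower with a median of -0.12, and 1 passed with the block. Of 8 other mRNAs with a TOP tract, 7 were lower with a median of -0.07 and 0 passed. Of 39 ribosome biogenesis factors, 30 were lower with a median of -0.06, and FBL, the nucleolar RNA methyltransferase fibrillarin, passed with the block (-0.30, adjusted p = 0.0123). Of 28 initiation factors, 17 were lower with a median of -0.03, and EIF3C was higher with the block (0.55, adjusted p = 0.0092). The 78 mitochondrial ribosomal protein genes had a median of -0.03, with 50 lower, and 2 were lower and 1 higher with the block. The 11 RNA polymerase I genes had a median of -0.02 and 0 passed. The 18 genes of growth control had a median of 0.00, and MYC was lower with the block (-0.17, adjusted p = 0.0444). Without the block, 0 genes of these lists passed the adjusted p in either JOA comparison. In MOLM-13 cells the medians of all these lists lay between -0.05 and -0.01.

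Between the lines, the median of each list was below 0 in THP-1, where 32.2% of all genes were lower and 39% higher by the adjusted p. The lists were not tested as sets. All 6 elongation factors had lower values (median log2 fold change -0.63, 5 lower by the adjusted p), and so did all 6 relatives of the members (median -0.39, 5 lower). The median was -0.29 over initiation factors (16 lower and 5 higher), -0.24 over biogenesis factors (20 lower and 1 higher), -0.32 over RNA polymerase I genes (8 lower and 2 higher), -0.25 over mitochondrial ribosomal proteins (44 lower and 9 higher), -0.19 over growth control genes (9 lower and 6 higher, of 18) and -0.15 over the other TOP mRNAs (4 lower and 1 higher). Several of the largest values were again on chromosome 8, such as EIF3E (-2.20), EIF3H (-1.70) and PABPC1 (-1.83). The 13 snoRNA host genes of the list are not analysed here.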

How the data were processed

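mRNA-seq libraries were made with a stranded kit. The FPKM values of all 12 libraries were computed by the authors and deposited as a single table. The submitters' processing notes name Trimmomatic, HISAT2, Cufflinks, HTSeq and hg38, and the annotation and length model are not given in the sources used here. No counts were used, so depth is unknown and the authors' count test was not run. Of the row names, 27 were date-like and were left as they are.

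Values were analysed as log2(FPKM + 0.1) for genes with a mean of at least 0.1 FPKM in the libraries compared. Fold changes are on this scale, which understates changes of low genes. Tests used limma 3.58.1 in R 4.3.3, moderated with a trend and two-sided, over all genes with Benjamini-Hochberg adjustment. Calls needed an adjusted p below 0.05, and where stated a log2 fold change of at least 0.58 in size. The script was tested on simulated data. Python 3.11.15 and scipy 1.17.1 made the summaries and the exact permutation tests. Positions came from GENCODE 29 and promoters from RefSeq on GRCh38.p14.

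Samples were grouped by labelled line and treatment. Members and lists were chosen with earlier results of these data known. Named were the 5 members with the highest and the 5 with the lowest level and response, all members called where 30 or fewer, and members of fixed roles. Some genes named by this rule are not reported here. Genes of other lists that passed with the block were chosen after their values were seen. Same-numbered control and JOA libraries deviated together within each line (correlations 0.36 to 0.529 in MOLM-13 and 0.263 to 0.51 in THP-1), which comes from the data and not the labels, and counts with the number as a block are given where they differ by over 1.5 times. Between lines these correlations were 0.0662 to 0.187. Alternatives varied the pseudocount, filter, scaling, moderation, block and libraries.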

Additional observations from a re-analysis of the deposited data

How the results depend on the processing

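Single members were followed under the alternatives only where named. No member of the MOLM-13 JOA comparison or of the difference between lines was called by the adjusted p under any alternative run. In THP-1 with JOA, 0 members passed the adjusted p without the block, and 1 was lower in one fit on 12 libraries. With the replicate number as a block 11 were lower, and with the block and without pair 1, 2 or 3 there were 36, 5 and 2, alternatives chosen after seeing the data. The block changed no other count of members called by the adjusted p by over 1.5 times. Between the lines, 8 members were higher by the adjusted p, as compared to 5 with any value above 0 and no other filter, 5 in the JOA libraries, where the median was -0.46, and 4 to 8 when a library was left out. The cause was not tested.

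Small fold changes turned direction. In MOLM-13 with JOA and 1 library left out, the log2 fold change ran from -0.25 to 0.06 for RPL30, from -0.23 to 0.06 for RPL37, from -0.05 to 0.14 for RPL13A and from -0.06 to 0.21 for RPL39. With the block, it was 0.14 for RPL30 without pair 3 and -0.06 for RPL39 without pair 1. In THP-1, RPL6 ran from -0.04 to 0.04, with 0.02 under TPM and 0.08 with the block without pair 1, and RPL39L was -0.01 with the block without pair 3. For the difference between lines, RPL28 ran from -0.12 to 0.08 (TPM 0.01), RPL37 from -0.17 to 0.12 (TPM 0.04), RPS15 from -0.03 to 0.05 (median ratio scaling -0.03), RPL36A from -0.10 to 0.18 and RPL39L from -0.04 to 0.17. A fit without mitochondrially encoded genes was not run, since 0 rows bear such names. Depth is unknown, which leaves counting error unmeasured, and 3 libraries in each group limit the precision.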
